A study of Mus musculus with 18 samples.

Results

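The comparison described here sets mouse blood progenitor cells with floxed Ddx41 alleles against cells with wild-type alleles, with both under the same recombination-inducing drug. The members are the 6 libraries whose labels give 4-hydroxytamoxifen (4OHT) treatment and either the FF or the WT line, out of 18 libraries in the series. FF cells (3 libraries, A to C) were flox/flox for Ddx41 and are labelled -/- after 4OHT. WT cells (3 libraries, A to C) were +/+ and received the same 4OHT. Both had 1 µM 4OHT for 48 h to activate a CreERT recombinase expressed from the Rosa locus. Both came from lineage-negative mouse bone marrow immortalized with a retrovirus carrying MLL-AF9, and both grew in IL-3, SCF and IL-6. FF (flox/flox) and WT (+/+) cells given ethanol (EtOH), the solvent of the drug, serve below as the uninduced state of the same lines. The labels do not say how many lines or cultures stand behind a group, so p-values measure only the spread between libraries within groups. Unless said otherwise, that spread was estimated from all groups of the 18 libraries, and not from these 6 libraries alone. Libraries FF_EtOH C and WT_EtOH C, described below, are part of it wherever they are not named as left out. The genotype and the identity of the cell line cannot be told apart in this comparison. In these bulk libraries, fewer cells of a type and less RNA per cell cannot be told apart either.

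DDX41 is a DEAD-box RNA helicase of the nucleus, found with spliceosomal complexes, and inherited DDX41 mutations predispose people to myeloid neoplasms. It has also been described as a sensor of cytosolic DNA. MLL-AF9 is a leukemia fusion protein that holds myeloid progenitors in a self-renewing state through Hoxa9 and Meis1. Cre recombination removes DNA between loxP sites, after which the remaining mRNA and protein have to decay, so the measured state is an early one. CPM values (counts scaled to a common library total) below are scaled for library composition, log2 fold changes are FF_4OHT over WT_4OHT and come from the fit without WT_4OHT C unless said otherwise, and a gene is "called" when its adjusted p from edgeR's quasi-likelihood test was under 0.05. Where a call is said to be lost without a named library, only that library was left out of the fit with all libraries. Such fits otherwise include WT_4OHT C. Genes on chromosomes X and Y took part in every test and are left out of the description.

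The 6 libraries held between 24730213 and 39459035 assigned counts. The library labelled WT_4OHT C did not lie with the other WT libraries. On an axis on which the uninduced WT cells (EtOH, A and B) are at 0 and the uninduced FF cells (EtOH, A and B) at 1, the FF_4OHT libraries lay at 0.831, 0.869 and 0.901, WT_4OHT A and B at 0.065 and 0.112, and WT_4OHT C at 1.015. Libraries FF_EtOH C and WT_EtOH C lay at 0.091 and 0.135. Tgm2, which encodes a transglutaminase and was named after its values were seen, was at 24.6, 19.95 and 27.1 CPM in FF_4OHT, at 18.01 and 17.3 CPM in WT_4OHT A and B, and at 480 CPM in WT_4OHT C. In EtOH it was at 440, 275 and 401 CPM in FF libraries A to C and at 220, 227 and 25.4 CPM in WT libraries A to C. WT_4OHT C thus sat with uninduced FF cells on both measures, against its label. FF_EtOH C lay with the WT libraries on the axis and with the EtOH libraries in Tgm2, and WT_EtOH C lay with the WT libraries on the axis and with the 4OHT libraries in Tgm2. Whether labels were exchanged among these 3 C libraries was not tested; the labels were kept as given, and means over 3 libraries of WT_4OHT, FF_EtOH or WT_EtOH hold one of them. Counts of called genes are given with WT_4OHT C and without it. Many genes were named because both fits called them, so agreement between the fits is partly built into the next count. Genes called only without WT_4OHT C, described below, are not in it. Of 112 named genes called in both fits, 108 had log2 values that differed by at most 1.5-fold between the fits. The other 4 were Pira2 (2.56 with all libraries and 3.69 without WT_4OHT C), Ly6a (1.99 and 2.69), Zbp1 (1.51 and 2.16) and the fatty acid desaturase Scd1 (-1.50 and -0.76). Rn45s, the ribosomal RNA precursor, was at 5987, 18286 and 41159 CPM in FF_4OHT A to C, and at 2701, 3488 and 2579 CPM in WT_4OHT A to C. Its part in the results below was not tested.

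**Figure D1:**
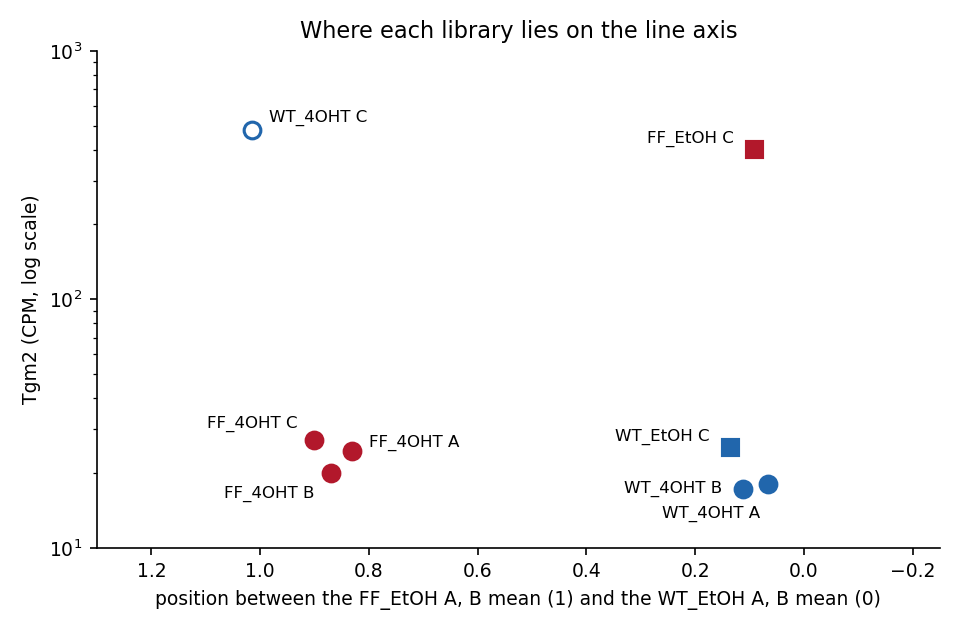
The horizontal axis gives each library's position between uninduced FF cells (1) and uninduced WT cells (0), and the vertical axis gives Tgm2 in CPM on a log scale, with circles for 4OHT and squares for EtOH. The open circle, the library labelled WT_4OHT C, sits at 1.015 with 480 CPM, while WT_4OHT A and B sit at 0.065 and 0.112 with 18.01 and 17.3 CPM.

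The targeted gene was strongly reduced in FF cells after 4OHT. Ddx41 (chr13:55530410-55536658, minus strand, GRCm38) was at 14.6, 16.5 and 17.7 CPM in FF_4OHT A to C, against 75.5, 88.5 and 93.0 CPM in WT_4OHT A to C. The groups were far apart, and the FF_4OHT mean of 16.3 ± 1.54 CPM (SD, n = 3) was 19.0% of the WT_4OHT mean of 85.7 ± 9.10 CPM (SD, n = 3). The log2 fold change was -2.40 ± 0.17 (SE, edgeR adjusted p = 1.11e-06) with all 6 libraries and -2.34 ± 0.18 (edgeR adjusted p = 7.94e-06) without WT_4OHT C. Cells of the Het line, labelled +/- after 4OHT, lay between, at 58.4, 43.0 and 41.3 CPM. In EtOH, Ddx41 was at 112, 82.0 and 73.7 CPM in FF and at 80.1, 81.8 and 89.6 CPM in WT libraries. The deposited counts are per gene, so any reads from exons that Cre does not remove are part of the FF_4OHT value.

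Several markers of myeloid progenitors were at similar levels in both groups. Others were called lower in FF_4OHT, most of them only without WT_4OHT C, and 1 was called higher. Of 17 genes of the progenitor surface and of stem cells, 1 was called higher and 1 lower in both fits, beside 2.91% and 6.93% of all genes, as given below. Without WT_4OHT C, 1 was called higher and 4 lower (Spn, Cd34, Erg and Lmo2). Ly6a, the stem cell antigen Sca-1, was the gene called higher in both fits (log2 1.99 with all libraries and 2.69 without WT_4OHT C). It lost its call without FF_4OHT B, FF_4OHT C, WT_4OHT A or WT_4OHT B (highest edgeR adjusted p = 0.157). Ptprc, the pan-leukocyte antigen CD45, was at 440, 431 and 380 CPM in FF_4OHT and at 396, 318 and 304 CPM in WT_4OHT. Kit, the receptor for SCF, was at 92.6, 97.6 and 89.0 CPM in FF_4OHT and at 122, 112 and 76.8 CPM in WT_4OHT. The MLL-AF9 targets Meis1 (103, 114 and 145 CPM in FF_4OHT, 120, 108 and 97.8 CPM in WT_4OHT) and Hoxa9 (354, 323 and 265 CPM in FF_4OHT, 383, 320 and 210 CPM in WT_4OHT) overlapped between the groups. None of these 4 genes was called with or without WT_4OHT C. Cd34, a surface protein of stem and progenitor cells, was close to 0 in FF_4OHT, at 0.515, 0.0975 and 0.0832 CPM, against 4.93, 3.13 and 0.0273 CPM in WT_4OHT, and was called without WT_4OHT C (edgeR adjusted p = 0.0174) and not with it (0.0835). Erg, a stem cell transcription factor, was at 1.15, 0.877 and 0.749 CPM in FF_4OHT, against 12.4, 9.21 and 0.245 CPM in WT_4OHT (log2 -3.54 and edgeR adjusted p = 0.00611 without WT_4OHT C, 0.0584 with it). In EtOH, Erg was at 1.43, 0.675 and 5.01 CPM in FF libraries A to C and at 9.62, 9.14 and 5.35 CPM in WT libraries A to C. It was called lower there without the 3 C libraries (log2 -3.13, edgeR adjusted p = 0.0229) and not with all libraries (0.939). Lmo2, a partner of blood cell transcription factors, was at 209, 192 and 188 CPM in FF_4OHT, against 248, 280 and 212 CPM in WT_4OHT (-0.43 and edgeR adjusted p = 0.0232 without WT_4OHT C, 0.065 with it). Spn, the sialoglycoprotein CD43, was the gene called lower in both fits, at 356, 335 and 318 CPM in FF_4OHT and 416, 470 and 507 CPM in WT_4OHT, and lost the call without FF_4OHT B or C (highest edgeR adjusted p = 0.0802).

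Across 11870 autosomal genes tested with all 6 libraries, 513 were called higher in FF_4OHT (4.32%) and 1062 lower (8.95%). Without WT_4OHT C, 732 of 12028 were called higher (6.09%) and 989 lower (8.22%). In both fits, 345 of 11869 were called higher (2.91%) and 822 lower (6.93%), and no gene was called in opposite directions. Leaving out FF_4OHT C from the fit with all libraries gave 173 higher and 401 lower, and leaving out WT_4OHT B gave 158 and 574. Without FF_4OHT A the counts were 303 and 671, without FF_4OHT B 251 and 526, and without WT_4OHT A 338 and 859. The 1167 genes called in both fits were 74.1% of the calls with all libraries and 67.8% of the calls without WT_4OHT C. For 1141 of them the 3 FF_4OHT libraries did not overlap the 3 WT_4OHT libraries. Separation of the groups, given below for single genes, was thus a trait of nearly all these calls. At least 2-fold in both fits were 173 of the higher and 178 of the lower genes. The median log2 fold change of all autosomal genes was -0.007 with all libraries and 0.006 without WT_4OHT C. Called genes came from every autosome, from 10.2% of the genes tested on chromosome 13 to 17.5% on chromosome 6 without WT_4OHT C. Counts of list members called below are those called in both fits, to be read against 2.91% higher and 6.93% lower.

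Genes of mitosis were lower in 4OHT-treated FF cells than in 4OHT-treated WT cells. Of 41 tested G2/M genes, 24 were called lower in both fits and none higher, and 40 of 41 lay below 0. Their median log2 fold change was -0.53 with all libraries and -0.53 without WT_4OHT C. Kif20a, a kinesin of the central spindle, was at 102, 100.1 and 84.9 CPM in FF_4OHT, against 150, 158 and 163 CPM in WT_4OHT (log2 -0.69 ± 0.10 without WT_4OHT C, edgeR adjusted p = 0.000918). Racgap1, a GTPase activator needed for cytokinesis, was at 113, 107 and 92.9 CPM in FF_4OHT, against 163, 152 and 160 CPM in WT_4OHT (-0.59 ± 0.10, edgeR adjusted p = 0.00248). Both genes separated the groups completely, with FF_4OHT C the lowest library. Cdc25c, the phosphatase that activates the mitotic kinase, had 13.6, 13.5 and 13.2 CPM in FF_4OHT and 22.5, 23.1 and 20.8 CPM in WT_4OHT (-0.77 ± 0.14, edgeR adjusted p = 0.00341). The spindle protein Dlgap5 fell by 0.53 on the log2 scale (edgeR adjusted p = 0.00337). Cdk1, the mitotic kinase itself, and its partner Ccnb1, both named after their values were seen, fell by 0.67 and 0.59 on the log2 scale without WT_4OHT C. Leaving FF_4OHT C out of the fit with all libraries ended their calls (edgeR adjusted p = 0.0506 and 0.103). The summed level of the list was 4435, 4455 and 3771 CPM in FF_4OHT and 6105, 5947 and 6188 CPM in WT_4OHT, so that the groups did not overlap.

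The promoter of Racgap1 is shown because G2/M genes moved together and many carry the same short element. The capitals mark TTTGAA, the core of the cell cycle genes homology region (CHR), at which the DREAM and MuvB complexes are known to bind. The sequence is that of RefSeq on GRCm38.p6, chr15:99651607-99651906, minus strand, from 250 bases before to 50 after the start of the gene.
Racgap1: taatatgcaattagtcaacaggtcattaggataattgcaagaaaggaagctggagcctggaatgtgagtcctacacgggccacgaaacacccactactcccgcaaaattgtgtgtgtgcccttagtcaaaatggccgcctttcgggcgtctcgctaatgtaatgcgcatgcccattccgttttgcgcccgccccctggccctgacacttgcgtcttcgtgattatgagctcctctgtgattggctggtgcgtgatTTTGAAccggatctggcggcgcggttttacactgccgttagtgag
On either strand of such windows, TTTGAA was found in 26 of the 34 G2/M genes with a promoter in the table (76.5%), against 19.9% of 25748 genes. CCAAT, the box bound by NF-Y, was likewise found in 26 of the 34 (76.5%), against 10552 of the 25748 genes, and it lies in the Racgap1 window too, on the opposite strand. A match is a description of the letters and not of binding.

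**Figure D2:**
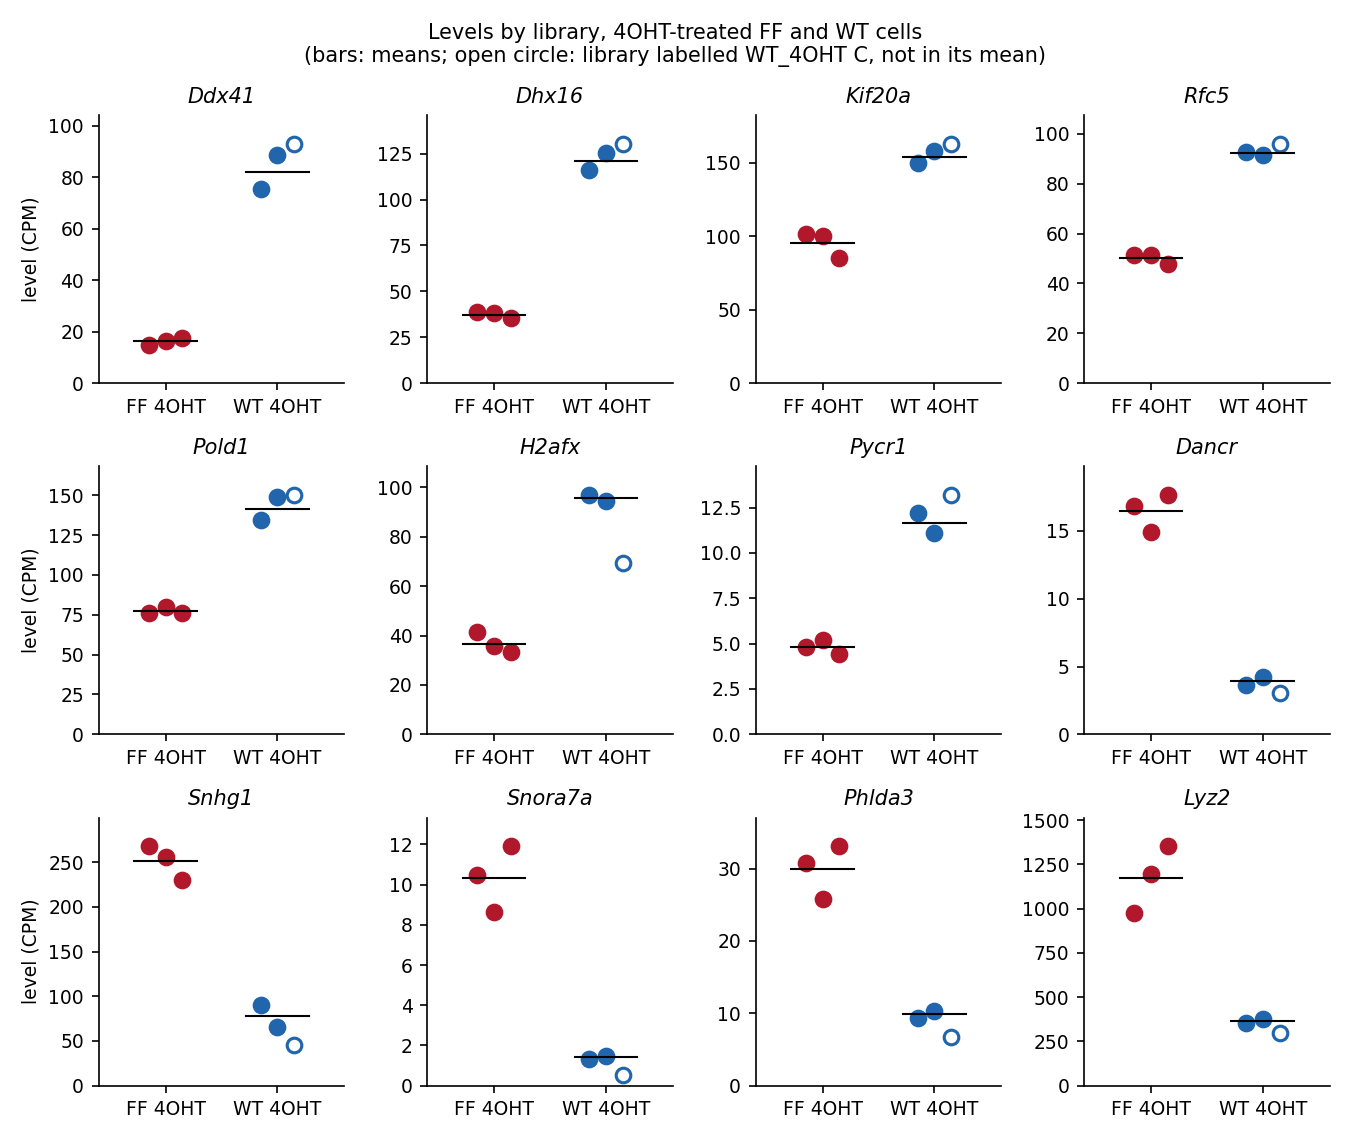
Each panel gives 1 gene in CPM, with the FF_4OHT libraries A to C on the left and the WT_4OHT libraries on the right, bars at the mean of the filled points and the open circle for WT_4OHT C. Ddx41, Dhx16, Kif20a, Rfc5, Pold1, H2afx and Pycr1 are lower in every FF_4OHT library, and Dancr, Snhg1, Snora7a, Phlda3 and Lyz2 are higher in every one. Such separation held for 1141 of the 1167 genes called in both fits, and it was part of the rule that named some of these genes.

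DNA replication genes were lower as well. Of 44 tested, 14 were called lower in both fits and none higher, with a median of -0.34 with all libraries and -0.36 without WT_4OHT C. Rfc5, a subunit of the clamp loader, was at 51.4, 51.5 and 47.9 CPM in FF_4OHT, against 92.7, 91.7 and 96.1 CPM in WT_4OHT (log2 -0.88 ± 0.11 without WT_4OHT C, edgeR adjusted p = 0.000268). Pold1, the catalytic subunit of DNA polymerase delta, was at 76.1, 79.8 and 75.8 CPM in FF_4OHT, against 134, 149 and 150 CPM in WT_4OHT (-0.87 ± 0.11, edgeR adjusted p = 0.000423). The libraries of each group were tightly spaced for both genes. Tk1, the thymidine kinase of the salvage pathway, and Mcm7, part of the replicative helicase, fell by 0.92 and 0.82 on the log2 scale. The letters TTTGGCGC, an E2F-type element, were in 14.3% of the 35 replication genes with a promoter in the table, against 0.586% of all genes.

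Of 34 DNA repair genes tested, 13 were called lower in both fits and none higher, with medians of -0.44 with all libraries and -0.47 without WT_4OHT C. H2afx, which encodes the histone variant phosphorylated at DNA breaks, was at 41.5, 35.6 and 33.2 CPM in FF_4OHT, against 96.9, 94.5 and 69.2 CPM in WT_4OHT (log2 -1.38 ± 0.19 without WT_4OHT C, edgeR adjusted p = 0.000633). WT_4OHT C was the lowest WT library for this gene and still above every FF_4OHT library. Rad54l, a translocase of homologous recombination, fell by 0.81, and Fanca, of the Fanconi core complex, by 0.94 on the log2 scale. Replication-dependent histone genes, whose mRNAs lack a poly(A) tail, were not called by edgeR: 0 of 36 tested with all libraries and 0 of 40 without WT_4OHT C, with 1 in each fit at an unadjusted p under 0.05, 1 called by DESeq2 and 0 by limma voom. Their median was 0.52 with all libraries and 0.44 without WT_4OHT C, at summed levels of 43.7, 42.5 and 54.7 CPM in FF_4OHT and 41.7, 37.5 and 27.8 CPM in WT_4OHT.

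Of 39 tested targets of p53, the transcription factor of the DNA damage response, 6 were called higher in both fits and 3 lower, around a median of 0.45 with all libraries and 0.39 without WT_4OHT C. Phlda3, a repressor of AKT signaling, was at 30.7, 25.9 and 33.1 CPM in FF_4OHT, against 9.38, 10.4 and 6.73 CPM in WT_4OHT (log2 1.59 ± 0.37 without WT_4OHT C, edgeR adjusted p = 0.0103). Tnfrsf10b, a death receptor for TRAIL, was at 28.3, 22.7 and 23.6 CPM in FF_4OHT, against 12.1, 13.04 and 13.3 CPM in WT_4OHT (0.98 ± 0.23, edgeR adjusted p = 0.011). Mdm2, the ubiquitin ligase that restrains p53, rose by 0.43 (edgeR adjusted p = 0.043 without WT_4OHT C), and lost its call without FF_4OHT A (0.0715). Cdkn1a, which encodes the cell cycle inhibitor p21, was at 262, 218 and 272 CPM in FF_4OHT and at 179, 177 and 232 CPM in WT_4OHT, with edgeR adjusted p values of 0.477 and 0.382 with and without WT_4OHT C. Bax, which opens the mitochondrial membrane in apoptosis, had a log2 value of 0.46 and an edgeR adjusted p of 0.139 without WT_4OHT C. Mdm2, Cdkn1a and Bax were named after their values were seen. Pml, the organizer of nuclear bodies, and Ckap2, a spindle protein, were among the 3 that fell, by 0.85 each on the log2 scale, and Ckap2 lost its call without FF_4OHT C (edgeR adjusted p = 0.0818).

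Of 27 BCL2 family and caspase genes, 2 were called in both fits, both lower. Bid, which links death receptors to mitochondria, was at 83.7, 94.9 and 76.5 CPM in FF_4OHT, against 117, 121 and 126 CPM in WT_4OHT (log2 -0.49 ± 0.12 without WT_4OHT C, edgeR adjusted p = 0.012).

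Genes of amino acid synthesis, transport and tRNA charging, many of them known targets of the transcription factor ATF4, were lower in FF_4OHT. Of 38 tested, 16 were called lower in both fits and none higher, with medians of -0.50 with all libraries and -0.41 without WT_4OHT C. Cth, which makes cysteine from cystathionine, was at 3.81, 3.28 and 3.04 CPM in FF_4OHT, against 33.4, 31.9 and 11.9 CPM in WT_4OHT (log2 -3.27 ± 0.54 without WT_4OHT C, edgeR adjusted p = 0.00173). In EtOH, Cth was at 10.3, 10.1 and 56.4 CPM in FF libraries A to C and at 46.1, 47.3 and 34.0 CPM in WT libraries A to C. It was called lower there without the 3 C libraries (log2 -2.16, edgeR adjusted p = 1.74e-06) and not with all libraries (-0.73, adjusted p = 1.0). The proline enzymes Pycr1 (4.84, 5.198 and 4.45 CPM in FF_4OHT, against 12.2, 11.1 and 13.2 CPM in WT_4OHT; edgeR adjusted p = 0.000406 without WT_4OHT C) and Aldh18a1 (108, 116 and 112 CPM in FF_4OHT, against 200.1, 217 and 234 CPM in WT_4OHT; edgeR adjusted p = 0.000252) separated the groups completely. Slc1a5, a glutamine transporter, fell by 0.97 on the log2 scale. Asns, asparagine synthetase, and Phgdh, which starts serine synthesis, fell by 0.68 and 0.83, both named after their values were seen, and Asns lost its call without FF_4OHT C (edgeR adjusted p = 0.051). Atf4 itself, named in the same way, was at 637, 522 and 474 CPM in FF_4OHT and at 702, 705 and 688 CPM in WT_4OHT, with edgeR adjusted p values of 0.151 and 0.197 with and without WT_4OHT C.

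The Pycr1 promoter is shown as an example of the amino acid response element, to which ATF4 is known to bind. The capitals mark the match to TGATGNAA, in RefSeq sequence on GRCm38.p6, chr11:120643699-120643998, minus strand.
Pycr1: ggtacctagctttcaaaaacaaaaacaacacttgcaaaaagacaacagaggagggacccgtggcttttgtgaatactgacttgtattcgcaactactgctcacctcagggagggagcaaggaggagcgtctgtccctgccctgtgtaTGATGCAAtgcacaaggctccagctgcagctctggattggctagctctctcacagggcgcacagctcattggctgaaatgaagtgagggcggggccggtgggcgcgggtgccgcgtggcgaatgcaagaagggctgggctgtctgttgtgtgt
TGATGNAA was found on either strand in 12 of the 30 genes of the list with a promoter in the table (40.0%), against 4.33% of 25748 genes.

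Other metabolic lists had fewer members called. Of 17 fatty acid genes, 5 were called lower in both fits and none higher, with medians of -0.45 with all libraries and -0.26 without WT_4OHT C. Scd2, a fatty acid desaturase, was at 761, 954 and 826 CPM in FF_4OHT, against 1362, 1403 and 2157 CPM in WT_4OHT (log2 -0.71 ± 0.18 without WT_4OHT C, edgeR adjusted p = 0.0142), so that WT_4OHT C widened the difference. Acaca, the first enzyme of fatty acid synthesis, and Fads1, another desaturase, fell by 0.74 and 0.52, and Far2, a fatty acyl reductase, by 2.96 without WT_4OHT C. The calls of Far2 and Acaca were lost without FF_4OHT B or C, without FF_4OHT A for Acaca and without WT_4OHT A or B for Far2 (highest edgeR adjusted p = 0.0887 for Acaca and 0.116 for Far2). Of 23 cholesterol genes, 1 was called in both fits, Tm7sf2, a sterol reductase, at -0.77. With all libraries 4 were called lower and none higher. Without WT_4OHT C, 1 other gene was called higher, at 8.11. Of 21 glycolysis genes, 1 was called, the hexokinase Hk3, at -0.44 (edgeR adjusted p = 0.0494 without WT_4OHT C, and up to 0.0785 without FF_4OHT B, FF_4OHT C or WT_4OHT B), and that list's median was -0.29 with all libraries and -0.07 without WT_4OHT C. Of 24 chaperones of the endoplasmic reticulum, 4 fell and none rose. Sdf2l1, a cofactor of ER chaperone complexes, was at 129, 127 and 121 CPM in FF_4OHT, against 257, 256 and 231 CPM in WT_4OHT (-1.03 ± 0.14, edgeR adjusted p = 0.000427). Hspa5, the main ER chaperone BiP, Hsp90b1 and Herpud1 fell by 0.57, 0.53 and 0.69, and each lost its call without FF_4OHT C (highest edgeR adjusted p 0.069, 0.0921 and 0.083), Hspa5 and Herpud1 also without FF_4OHT B. Of 22 genes of heme, iron and the NRF2 response, 1 was called higher and 2 lower in both fits. The heme enzyme Cpox fell by 0.83, and Fth1, the ferritin heavy chain that stores iron, rose by 0.75. Fth1 lost its call without FF_4OHT C or WT_4OHT B (edgeR adjusted p up to 0.0705).

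Transcripts that host small nucleolar RNAs (snoRNAs) were higher in FF_4OHT. These hosts are mostly noncoding RNAs whose introns release snoRNAs, which in turn guide chemical modification of ribosomal RNA. Of 10 tested hosts of this kind, 5 were called higher in both fits and none lower, with medians of 1.14 with all libraries and 1.09 without WT_4OHT C. Snhg1 was at 268, 256 and 230.1 CPM in FF_4OHT, against 89.8, 65.4 and 45.6 CPM in WT_4OHT (log2 1.69 ± 0.27 without WT_4OHT C, edgeR adjusted p = 0.00131). Dancr was at 16.9, 14.9 and 17.6 CPM in FF_4OHT, against 3.62, 4.24 and 3.08 CPM in WT_4OHT (2.06 ± 0.27, edgeR adjusted p = 0.000427). In both, the FF_4OHT libraries were well above all WT_4OHT libraries. Snhg3 and Snhg12 rose by 1.47 and 1.29 on the log2 scale, and Gas5, named after its values were seen, by 0.90 (edgeR adjusted p = 0.00751).

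Reads at the snoRNAs themselves were also higher in FF_4OHT. The list held 114 autosomal snoRNAs, of which 69 had enough counts to be tested with all libraries and 73 without WT_4OHT C, and 14 were at 0 counts in all 6 libraries. In both fits 18 were called higher and none lower, with medians of 1.403 with all libraries and 1.20 without WT_4OHT C. Their summed level was 161, 160 and 158 CPM in FF_4OHT and 74.6, 74.3 and 47.0 CPM in WT_4OHT. Both families took part: without WT_4OHT C, 6 of 25 H/ACA box and 13 of 46 C/D box snoRNAs were called higher. The sequences of 2 of each family are shown because they were among those called in both fits. In the H/ACA box snoRNAs the capitals mark the ACA near the 3′ end, and in the C/D box snoRNAs they mark the C box (TGATGA) and the D box (CTGA). They are from GENCODE M21 transcripts (GRCm38).
Snora7a: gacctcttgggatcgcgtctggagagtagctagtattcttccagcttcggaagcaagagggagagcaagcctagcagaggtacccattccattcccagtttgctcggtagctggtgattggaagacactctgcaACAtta
Snora61: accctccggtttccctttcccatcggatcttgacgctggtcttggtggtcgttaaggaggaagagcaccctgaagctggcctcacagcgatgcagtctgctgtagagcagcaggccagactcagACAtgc
Snord32a: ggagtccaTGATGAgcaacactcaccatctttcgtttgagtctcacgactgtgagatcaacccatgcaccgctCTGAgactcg
Snord49b: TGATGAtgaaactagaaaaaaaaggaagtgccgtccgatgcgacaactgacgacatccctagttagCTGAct
Snora7a (chr6:115807975-115808114, minus strand) was at 10.5, 8.64 and 11.9 CPM in FF_4OHT, against 1.34, 1.47 and 0.545 CPM in WT_4OHT (log2 2.87 ± 0.45 without WT_4OHT C, edgeR adjusted p = 0.00134). It lies in an intron of the ribosomal protein gene Rpl32, which had a log2 value of 0.05 (edgeR adjusted p = 0.952). Snora61 (chr4:132310240-132310369, plus strand) was at 4.56, 4.03 and 5.28 CPM in FF_4OHT, against 0.971, 1.45 and 1.09 CPM in WT_4OHT (1.92 ± 0.46, edgeR adjusted p = 0.0122), and its host Snhg12 was called higher too. Snord32a (chr7:45127382-45127464, minus strand), in Rpl13a, was at 2.34, 1.56 and 1.66 CPM in FF_4OHT, against 0.486, 0.543 and 0.382 CPM in WT_4OHT (1.83 ± 0.35, edgeR adjusted p = 0.00405). Snord49b (chr11:62603079-62603150, plus strand) was at 3.49, 3.02 and 4.49 CPM in FF_4OHT, against 0.598, 0.595 and 0.109 CPM in WT_4OHT. Of the 19 snoRNAs called without WT_4OHT C, 15 lie within a tested host gene. Of those, 2 had a host that was called higher and 13 a host that was not called, and over all 64 pairs of a tested snoRNA and a tested host the median log2 value was 1.19 for the snoRNA and 0.09 for the host. Reads of a snoRNA and of the host intron around it cannot be told apart in these counts, and Rn45s was likewise higher in the FF_4OHT libraries, as given above; its part in this result was not tested.

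**Figure D3:**
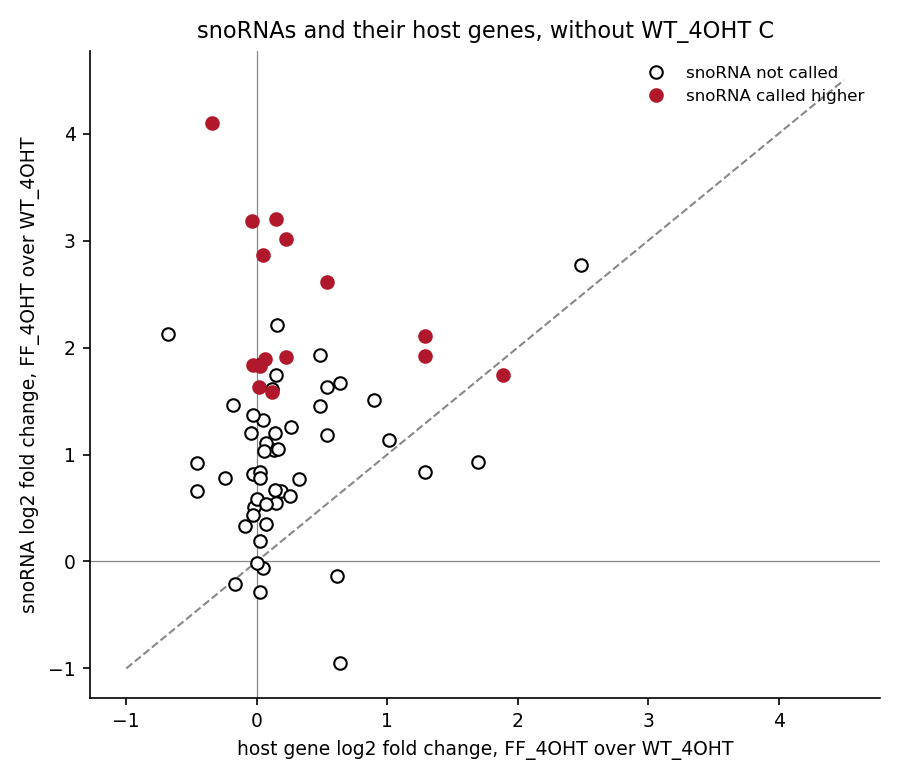
Each of the 64 points is a tested snoRNA inside a tested host gene, with the host's log2 fold change on the horizontal and the snoRNA's on the vertical axis, both FF_4OHT over WT_4OHT without WT_4OHT C. Filled points are the 15 snoRNAs called higher, and 55 of the 64 points lie above the dashed line of equal change.

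Genes of ribosome biogenesis, of ribosomal proteins and of the core spliceosome changed little as groups. Of 48 ribosome biogenesis genes, 4 were called lower in both fits and none higher, with a median of -0.13 with all libraries and -0.17 without WT_4OHT C. Polr1a, the largest subunit of RNA polymerase I, was at 76.2, 80.0 and 69.1 CPM in FF_4OHT, against 120.3, 124 and 137 CPM in WT_4OHT (log2 -0.70 ± 0.12 without WT_4OHT C, edgeR adjusted p = 0.00205). Tcof1, a nucleolar phosphoprotein that supports its activity, Nat10, an RNA acetyltransferase, and Bop1, of the large subunit assembly complex, fell by 0.64, 0.58 and 0.47. Of 74 cytosolic ribosomal protein genes, 0 were called in either direction by edgeR, DESeq2 or limma voom, and 0 were at an unadjusted edgeR p under 0.05 in either fit. Their median was 0.07 with all libraries and 0.05 without WT_4OHT C. The most abundant of them, Rpsa, was at 3223, 3010.0 and 3469 CPM in FF_4OHT and at 2742, 3218 and 3319 CPM in WT_4OHT.

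Of 51 core spliceosome genes, 1 was called higher and 3 lower in both fits, with a median of -0.002 in both, which turned slightly positive under other scalings. Dhx16 (chr17:35879819-35892670, plus strand, GRCm38), a DEAH-box helicase that acts in spliceosome activation, was at 38.5, 38.1 and 35.2 CPM in FF_4OHT, against 116, 126 and 130.4 CPM in WT_4OHT. Its log2 fold change was -1.73 ± 0.10 with all libraries and -1.70 ± 0.11 without WT_4OHT C (edgeR adjusted p = 9.70e-08 and 1.14e-06), and the FF_4OHT mean was 30.1% of the WT_4OHT mean. The 3 FF_4OHT libraries were close together and far below the WT_4OHT libraries, and the Het_4OHT libraries were at 112, 103 and 107 CPM. Eftud2, a GTPase of the U5 particle, and U2af2, which recognizes the polypyrimidine tract, fell by 0.36 each, and lost their calls without FF_4OHT C (edgeR adjusted p up to 0.0692 and 0.106), U2af2 also without FF_4OHT B or WT_4OHT B. Prpf3, a protein of the U4/U6 particle, was at 126, 124 and 124 CPM in FF_4OHT, against 67.5, 76.0 and 81.0 CPM in WT_4OHT (0.80 ± 0.13, edgeR adjusted p = 0.00161). Of 30 other DEAD-box helicases, 2 rose and 2 fell in both fits: Ddx55 by 0.69 and Ddx58, the RNA sensor RIG-I, by 0.75 upward, and Ddx50 by 0.55 and Ddx59 by 0.85 downward. The calls of Ddx50 and Ddx59 were lost without FF_4OHT B, FF_4OHT C or WT_4OHT B, and that of Ddx50 without WT_4OHT A (highest edgeR adjusted p 0.187 and 0.0871).

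Genes of the interferon response were higher in FF_4OHT, at modest levels. Of 40 tested, 8 were called higher in both fits and none lower, with medians of 0.51 with all libraries and 0.55 without WT_4OHT C. Irf9, part of the transcription factor that interferon activates, was at 24.4, 30.3 and 37.1 CPM in FF_4OHT, against 11.0, 15.9 and 17.3 CPM in WT_4OHT (log2 1.18 ± 0.24 without WT_4OHT C, edgeR adjusted p = 0.00574). Zbp1, a sensor of left-handed nucleic acid, was at 6.10, 8.28 and 11.9 CPM in FF_4OHT, against 2.28, 1.66 and 5.26 CPM in WT_4OHT (2.16 ± 0.41, edgeR adjusted p = 0.00371). For both genes WT_4OHT C was the highest WT library. Parp14, an ADP-ribosyltransferase, and Irgm1, an immunity-related GTPase, rose by 1.10 and 0.74. Rtp4, a chaperone of membrane receptors named after its values were seen, had 49 counts in FF_4OHT and 3 in WT_4OHT A and B together, a ratio of 13.3 with a 95% counting interval from 4.31 to 66.9. The calls of Zbp1 and Parp14 were lost without FF_4OHT B, FF_4OHT C, WT_4OHT A or WT_4OHT B (highest edgeR adjusted p 0.114 and 0.124), that of Irgm1 without FF_4OHT C (0.0511), and that of Rtp4 without FF_4OHT C or WT_4OHT B (0.0785). The summed level of the list was 833, 913 and 1002 CPM in FF_4OHT and 734, 752 and 937 CPM in WT_4OHT, so that with WT_4OHT C the groups overlapped.

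The Irgm1 promoter is shown with the letters GAAANNGAA of the interferon response element in capitals, where 2 matches overlap (RefSeq, GRCm38.p6, chr11:48871371-48871670, minus strand).
Irgm1: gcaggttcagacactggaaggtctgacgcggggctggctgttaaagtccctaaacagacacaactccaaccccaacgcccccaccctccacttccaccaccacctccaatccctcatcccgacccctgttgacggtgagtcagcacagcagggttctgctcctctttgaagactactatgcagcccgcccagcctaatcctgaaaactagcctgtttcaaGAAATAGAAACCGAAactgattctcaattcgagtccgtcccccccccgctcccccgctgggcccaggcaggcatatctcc
GAAANNGAA was found on either strand in 18 of the 31 genes of the list with a promoter in the table (58.1%), against 9.73% of 25748 genes.

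Of 16 genes of DNA and RNA sensing, the pathway in which DDX41 has been placed, 1 was called in both fits, higher. Ifi204, a sensor of the interferon-inducible p200 family, was at 2.97, 5.59 and 6.66 CPM in FF_4OHT, against 1.121, 1.01 and 0.981 CPM in WT_4OHT (log2 2.25 ± 0.65 without WT_4OHT C, edgeR adjusted p = 0.0316), and lost its call without FF_4OHT C or WT_4OHT B (up to 0.0619). Tmem173, which encodes STING, was at 136, 138 and 158 CPM in FF_4OHT and at 88.8, 96.1 and 132 CPM in WT_4OHT, and Mavs, the adaptor of RIG-I, at 31.4, 31.5 and 36.0 CPM in FF_4OHT and at 18.5, 22.2 and 35.3 CPM in WT_4OHT. Both were called without WT_4OHT C (edgeR adjusted p = 0.0334 and 0.0215) and not with it (0.115 and 0.246). In EtOH, Tmem173 was at 127, 120.3 and 73.8 CPM in FF libraries A to C and at 83.0, 77.0 and 86.6 CPM in WT libraries A to C, and was called higher without the 3 C libraries (edgeR adjusted p = 0.0108) and not with all libraries (0.906).

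Of 29 NF-kB and cytokine genes tested with all libraries, 6 were called higher and none lower, beside 4.32% and 8.95% of all genes. Of 30 tested without WT_4OHT C, 7 were called higher and none lower, beside 6.09% and 8.22%. The median was 1.07 in both fits. The 5 called in both fits included Icam1, an adhesion molecule, at 59.97, 57.8 and 65.2 CPM in FF_4OHT, against 33.8, 35.2 and 50.03 CPM in WT_4OHT (log2 0.82 ± 0.13 without WT_4OHT C, edgeR adjusted p = 0.00154). Nfkbia, the inhibitor that NF-kB itself induces, was at 110, 72.0 and 101 CPM in FF_4OHT, against 47.8, 36.7 and 49.6 CPM in WT_4OHT (1.16 ± 0.31, edgeR adjusted p = 0.0204). Ccl6, a myeloid chemokine, was at 135, 257 and 259 CPM in FF_4OHT, against 85.2, 74.5 and 53.03 CPM in WT_4OHT (1.44 ± 0.42, edgeR adjusted p = 0.0314). The chemokine Cxcl10 was at 4.44, 1.49 and 1.498 CPM in FF_4OHT, against 0.374, 0.595 and 0.845 CPM in WT_4OHT, with FF_4OHT A well above the others (2.32 ± 0.60, edgeR adjusted p = 0.0192). Leaving out 1 library ended the calls of Icam1 (WT_4OHT B, edgeR adjusted p = 0.0667), Nfkbia (FF_4OHT A, FF_4OHT C or WT_4OHT B, up to 0.0732) and Cxcl10 (FF_4OHT A, WT_4OHT A or WT_4OHT B, up to 0.117).

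Monocyte genes were mostly higher and primary granule genes lower in FF_4OHT. Of 36 monocyte and macrophage genes, 6 were called higher in both fits and none lower, with medians of 0.69 with all libraries and 0.61 without WT_4OHT C. Without WT_4OHT C, 7 were called higher and 1 lower, at -1.48, beside 6.09% and 8.22% of all genes. In that fit 27 lay above 0 and 9 below. Lyz2, lysozyme, was at 978, 1195 and 1352 CPM in FF_4OHT, against 356, 378 and 297 CPM in WT_4OHT (log2 1.68 ± 0.36 without WT_4OHT C, edgeR adjusted p = 0.00737). Clec4n, the fungal receptor Dectin-2, was at 35.8, 54.5 and 58.5 CPM in FF_4OHT, against 11.2, 12.6 and 7.99 CPM in WT_4OHT (2.05 ± 0.44, edgeR adjusted p = 0.00686). Clec4e, the receptor Mincle, and Tlr2, a receptor for bacterial lipoproteins, rose by 1.304 and 0.86. Of 26 lysosome genes, 5 rose and none fell, among them Lamp1 by 0.50, Ctsl by 0.93, Ctsd by 0.70 and the cholesterol exporter Npc1 by 0.77. Ctsl, Npc1 and Ctsd lost their calls without FF_4OHT B, FF_4OHT C, WT_4OHT A or WT_4OHT B (highest edgeR adjusted p 0.148, 0.0896 and 0.136). Of 21 C-type lectin and scavenger receptor genes, 0 were called by edgeR in both fits, with 6 at an unadjusted p under 0.05 with all libraries, 6 called by DESeq2 and 4 by limma voom. Clec2i, a lectin of the NK receptor cluster, was called without WT_4OHT C (edgeR adjusted p = 0.0282), at 89.5, 102 and 85.8 CPM in FF_4OHT and 53.4, 49.3 and 97.2 CPM in WT_4OHT. Of 26 cytokine receptor genes, 4 rose and none fell in both fits. Csf2rb2 and Csf2rb, both beta chains of IL-3 receptors, rose by 1.01 and 0.74, and the interferon receptor genes Ifngr2 and Ifnar1 by 0.85 and 0.49, of which Ifnar1 lost its call without FF_4OHT C (edgeR adjusted p = 0.0664). The 2 beta chain genes are near-identical copies, so reads between them are uncertain.

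All 9 primary granule genes lay below 0, and 2 were called lower in both fits, with medians of -0.62 with all libraries and -0.73 without WT_4OHT C. Mpo, myeloperoxidase, was at 548, 324 and 205 CPM in FF_4OHT, against 3413, 3739 and 455 CPM in WT_4OHT (log2 -3.32 ± 0.46 without WT_4OHT C, edgeR adjusted p = 0.000621). WT_4OHT C lay within the range of FF_4OHT for this gene, and the call was lost without FF_4OHT C (edgeR adjusted p = 0.0531). In EtOH, Mpo was at 1594, 601 and 2181 CPM in FF libraries A to C and at 3790, 3779 and 2441 CPM in WT libraries A to C, a difference that was called neither with all libraries (edgeR adjusted p = 0.906) nor without the 3 C libraries (0.0532). Elane, neutrophil elastase, was at 2239, 2172 and 2091 CPM in FF_4OHT, against 3911, 4812 and 3835 CPM in WT_4OHT (-1.01 ± 0.30, edgeR adjusted p = 0.0369), without such an overlap, but its call was lost without any 1 of FF_4OHT A to C or WT_4OHT A and B (highest 0.115). Of 21 genes of later granules and neutrophils, 0 were called by edgeR in both fits, with 4 at an unadjusted p under 0.05 with all libraries, 3 called by DESeq2 and 1 by limma voom, and the median was 0.21 with all libraries and -0.03 without WT_4OHT C. Padi4, which citrullinates histones, was at 58.6, 56.7 and 52.8 CPM in FF_4OHT, against 28.5, 35.5 and 106 CPM in WT_4OHT, so that its call (0.80, edgeR adjusted p = 0.0154) was absent with WT_4OHT C (-0.01, adjusted p = 0.985). Without WT_4OHT C, Cd177, a neutrophil surface protein, was also called higher, at 108, 72.9 and 91.7 CPM in FF_4OHT, against 26.2, 30.3 and 66.1 CPM in WT_4OHT (1.68, edgeR adjusted p = 0.0273, and 0.1 with all libraries). Fcnb, a ficolin, was called lower, at 2.85, 1.33 and 0.999 CPM in FF_4OHT, against 9.08, 7.995 and 1.09 CPM in WT_4OHT (-2.31, edgeR adjusted p = 0.0434, and 0.147 with all libraries). Myeloid transcription factors had 0 of 24 called by edgeR in either fit, with 1 at an unadjusted p under 0.05 with all libraries, 1 called by DESeq2 and 1 by limma voom. Spi1, which encodes PU.1, was at 279, 269 and 327 CPM in FF_4OHT and at 290.1, 314 and 252 CPM in WT_4OHT.

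Among 23 HOX and MLL-AF9 genes, 5 were called higher and 2 lower in both fits. Hoxa5 was at 79.4, 68.7 and 76.1 CPM in FF_4OHT, against 47.4, 43.9 and 32.9 CPM in WT_4OHT (log2 0.71 ± 0.14 without WT_4OHT C, edgeR adjusted p = 0.0043), whereas Hoxa9 and Meis1 were not called. Six4, a homeobox factor, rose by 1.99 and lost its call without FF_4OHT C or WT_4OHT B (edgeR adjusted p up to 0.0688). Bcat1, which transaminates branched-chain amino acids, was at 3.85, 3.67 and 1.79 CPM in FF_4OHT, against 12.6, 12.1 and 13.8 CPM in WT_4OHT (-1.99 ± 0.28, edgeR adjusted p = 0.000676).

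Markers of B, T and NK cells and of eosinophils were low, while the erythroid, stromal and megakaryocyte lists held single genes at higher levels. The summed B cell list was at 2.46, 2.79 and 3.99 CPM in FF_4OHT and at 11.5, 11.2 and 2.97 CPM in WT_4OHT, and most of the difference was Cd79b, a subunit of the B cell receptor, at 0.674, 0.715 and 0.125 CPM in FF_4OHT, against 9.86, 9.37 and 0.436 CPM in WT_4OHT, whose call was lost without any other library of the pair of groups (highest edgeR adjusted p = 0.165). Blnk, an adaptor of that receptor, went the other way, at 0.872, 1.36 and 2.70 CPM in FF_4OHT, against 0.486, 0.595 and 1.44 CPM in WT_4OHT (1.59, edgeR adjusted p = 0.0271 without WT_4OHT C, 0.163 with it). The T and NK cell list summed to 8.84, 9.91 and 9.20 CPM in FF_4OHT and to 9.53, 12.1 and 10.5 CPM in WT_4OHT, with 9 of its 18 autosomal genes at 0 counts in all 6 libraries. The eosinophil list summed to 0.595, 0.975 and 0.915 CPM in FF_4OHT and to 1.57, 1.06 and 0.491 CPM in WT_4OHT. The mast cell and basophil list summed to 35.2, 20.04 and 17.2 CPM in FF_4OHT and to 34.3, 32.7 and 21.7 CPM in WT_4OHT, and within it Hdc, which makes histamine, fell by 1.54 (edgeR adjusted p = 0.00263 without WT_4OHT C, up to 0.0641 without FF_4OHT B or WT_4OHT B). Erythroid genes were at 677, 686 and 480 CPM in FF_4OHT and at 679, 476 and 510 CPM in WT_4OHT, nearly all of it the transferrin receptor Tfrc, with 6 of 13 at 0. In the stromal and endothelial list, at 318, 311 and 275 CPM in FF_4OHT and at 441, 449 and 333 CPM in WT_4OHT, most of the sum was Vcam1, an adhesion receptor, and Pecam1, a junction protein that myeloid cells also carry. Vcam1 was at 142, 146 and 135 CPM in FF_4OHT, against 364, 368 and 82.4 CPM in WT_4OHT, and Pecam1 was at 149.9, 143 and 119 CPM in FF_4OHT, against 63.2, 67.8 and 216 CPM in WT_4OHT. In EtOH, Pecam1 was at 219, 212 and 66.9 CPM in FF libraries A to C and at 65.9, 66.6 and 64.0 CPM in WT libraries A to C. Its EtOH difference was called without the 3 C libraries (edgeR adjusted p = 4.00e-06) and not with all libraries (0.743), as was that of Vcam1 (0.000392 and 0.954). The megakaryocyte list summed to 184, 179 and 174 CPM in FF_4OHT and to 153, 150 and 125 CPM in WT_4OHT, most of it the transcription factor Fli1, with Itga2b, its integrin, under 2 CPM in every library. Itga2b was the 1 gene of that list called in both fits, higher by 1.67 with all libraries and 1.56 without WT_4OHT C. Its call was lost without FF_4OHT A, FF_4OHT C or WT_4OHT B (highest edgeR adjusted p = 0.088). The part of these lists in the results above was not tested. The dendritic cell list overlapped between the groups in its sum, with Cd74, the class II chaperone, at 6.30, 6.30 and 9.36 CPM in FF_4OHT, against 1.20, 1.76 and 2.48 CPM in WT_4OHT, a call lost without any 1 of FF_4OHT A to C or WT_4OHT A and B (highest edgeR adjusted p = 0.139). Flt3, a receptor of early progenitors and dendritic cells, was lower, at 0.119, 0.26 and 0.0832 CPM in FF_4OHT, against 2.35, 1.09 and 0 CPM in WT_4OHT (-3.38, edgeR adjusted p = 0.00636 without WT_4OHT C, 0.0867 with it). The class II chain H2-Ab1 was at 1.55, 1.33 and 3.79 CPM in FF_4OHT, against 0, 0.104 and 4.39 CPM in WT_4OHT, and was called higher without WT_4OHT C (edgeR adjusted p = 0.0131) and not with it (0.788).

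**Figure D4:**
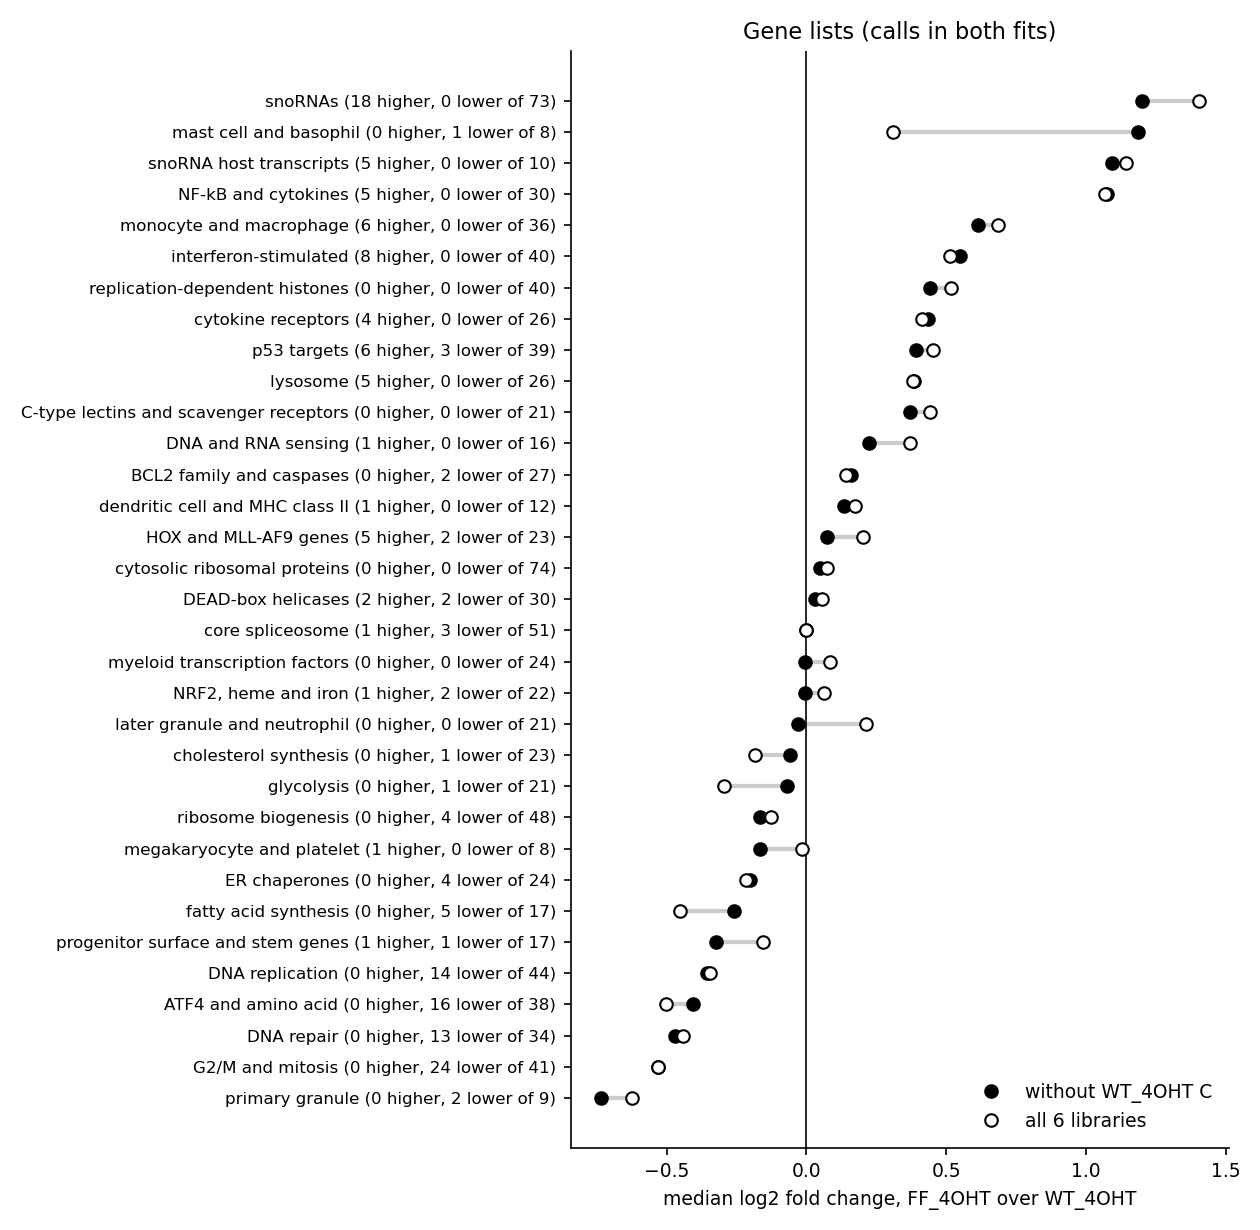
Each row is 1 of the 33 gene lists with at least 8 members tested, its points give the median log2 fold change of FF_4OHT over WT_4OHT with all 6 libraries (open) and without WT_4OHT C (filled), and its label gives the members called in both fits. snoRNAs, their hosts and the NF-kB list lie above 1, and the G2/M and primary granule lists lie below -0.5 in both fits.

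The largest changes that held in both fits were of genes inside and outside the lists. Of those described next, Ly6a is in the progenitor and stem cell list and Skida1 in the HOX and MLL-AF9 list. Among the higher ones, Spp1, the secreted phosphoprotein osteopontin, was at 217, 268 and 226 CPM in FF_4OHT, against 46.7, 53.8 and 102 CPM in WT_4OHT (log2 2.24 ± 0.54 without WT_4OHT C, edgeR adjusted p = 0.0124). Spint1, an inhibitor of serine proteases, was at 25.4, 39.4 and 27.8 CPM in FF_4OHT, against 2.91, 6.11 and 5.07 CPM in WT_4OHT (2.76 ± 0.64, edgeR adjusted p = 0.0105). Pira2, an activating immunoglobulin-like receptor, was at 9.95, 14.6 and 15.1 CPM in FF_4OHT, against 0.897, 1.14 and 4.66 CPM in WT_4OHT (3.69 ± 0.77, edgeR adjusted p = 0.00621). Pira2 belongs to a family of near-identical paralogs, so its counts are uncertain. Ly6a, the stem cell antigen Sca-1, Fblim1, an adaptor of cell adhesions, and Plxna1, a semaphorin receptor, rose by 2.69, 2.25 and 1.997. Without the 3 C libraries, Spint1 was also called higher in EtOH (log2 2.22, edgeR adjusted p = 0.0126), and not with all libraries (0.846). Spp1, Pira2, Ly6a, Fblim1 and Plxna1 were not called in EtOH. For Spp1, Pira2, Ly6a and Plxna1, WT_4OHT C was the highest WT library, nearer to FF_4OHT than the other WT libraries were. Their calls were lost without FF_4OHT B, FF_4OHT C, WT_4OHT A or WT_4OHT B (highest edgeR adjusted p 0.0912, 0.129, 0.157 and 0.11), that of Pira2 also without FF_4OHT A, and that of Fblim1 without FF_4OHT C or WT_4OHT B (0.0599).

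Among the lower ones, P2rx3, an ATP-gated ion channel, was at 20.4, 18.7 and 12.2 CPM in FF_4OHT, against 112, 106 and 36.1 CPM in WT_4OHT (log2 -2.68 ± 0.32 without WT_4OHT C, edgeR adjusted p = 0.000268). Tmem119, a membrane protein known as a microglia marker, was at 15.2, 11.5 and 12.9 CPM in FF_4OHT, against 51.0, 55.3 and 61.3 CPM in WT_4OHT (-2.01 ± 0.37, edgeR adjusted p = 0.00346). Plekhh2, a pleckstrin homology protein, was at 2.66, 2.92 and 2.41 CPM in FF_4OHT, against 22.1, 19.6 and 9.62 CPM in WT_4OHT (-2.97 ± 0.34, edgeR adjusted p = 0.00019). Tmem119 did not set WT_4OHT C apart from the other WT libraries, while P2rx3 and Plekhh2 were lower in it. Sh2d5, an SH2 domain adaptor, Itih5, an extracellular matrix protein, and St8sia5, a sialyltransferase, fell by 2.46, 2.24 and 2.11, and St8sia5 lost its call without FF_4OHT C (edgeR adjusted p = 0.0584). Without the 3 C libraries, P2rx3 and Sh2d5 were also called lower in EtOH (log2 -1.44 and -0.93, edgeR adjusted p = 0.00184 and 0.0453). With all libraries they were not (0.905 and 0.846). Tmem119, Plekhh2, Itih5 and St8sia5 were not called in EtOH. Skida1, a chromatin-associated protein, had 1, 2 and 0 counts in FF_4OHT, against 808 and 904 counts in WT_4OHT A and B and 3 in WT_4OHT C. Scaled for depth, WT_4OHT A and B exceeded FF_4OHT 698-fold, with a 95% counting interval from 239 to 3390. Its call was lost without FF_4OHT A, FF_4OHT B, FF_4OHT C or WT_4OHT B (highest edgeR adjusted p = 0.103). In EtOH, Skida1 was at 0.0816, 0.0711 and 31.3 CPM in FF libraries A to C and at 27.5, 29.2 and 24.2 CPM in WT libraries A to C, with a call without the 3 C libraries (edgeR adjusted p = 1.60e-06) and none with all libraries (1.0).

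Leaving out WT_4OHT C added 554 calls and removed 408. The largest of the added ones were genes that were on in one line and off in the other, with WT_4OHT C on the side of FF. Eya1, a transcriptional coactivator and phosphatase, was at 70.8, 73.3 and 82.3 CPM in FF_4OHT, at 0 in WT_4OHT A and B, and at 54.6 CPM in WT_4OHT C. Pea15a, an adaptor of death receptor signaling, was at 25.7, 29.3 and 33.5 CPM in FF_4OHT, at 0 in WT_4OHT A and B, and at 27.0 CPM in WT_4OHT C. With 3 counts over the group as the floor, FF_4OHT was at least 1640-fold higher than WT_4OHT A and B for Eya1, at least 641-fold higher for Pea15a and at least 257-fold higher for Psma8, a testis-type proteasome subunit. Ppp1r14c, a phosphatase inhibitor, As3mt, an arsenic methyltransferase, and Rangrf, a Ran-binding factor, had 2 counts each in WT_4OHT A and B together, which gives ratios of 1080 (299 to 8940), 532 (147 to 4390) and 353 (97.3 to 2920), with 95% counting intervals. Alox5, which starts leukotriene synthesis, was at 46.9, 37.5 and 42.1 CPM in FF_4OHT, at most 0.112 CPM in WT_4OHT A and B, and 26.4 CPM in WT_4OHT C. With all libraries these 7 genes had edgeR adjusted p values from 0.289 to 0.743. In EtOH, Eya1 was at 65.8, 55.2 and 0 CPM in FF libraries A to C and at 0 in WT libraries A to C. All 7 genes were also called higher in EtOH without the 3 C libraries (highest edgeR adjusted p = 1.52e-05). None was called there with all libraries (edgeR adjusted p = 0.743 for each).

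In the other direction, Erg, given above, was among the largest. Pcdhgb2, a protocadherin of a gene cluster with shared exons, was at 0.595, 0.845 and 0.458 CPM in FF_4OHT, against 12.0 and 10.4 CPM in WT_4OHT A and B and 0.273 CPM in WT_4OHT C. Cftr, a chloride channel, Slc28a2, a nucleoside transporter, Pdlim1, a cytoskeletal adaptor, Megf10, an engulfment receptor, Ugt8a, a glycolipid enzyme, and Scarf1, a scavenger receptor, were lower by log2 values from -2.01 to -2.96. WT_4OHT C was at or below the FF_4OHT mean for each of these 8 genes, whose edgeR adjusted p values with all libraries ran from 0.0579 to 0.1. Without the 3 C libraries, Erg, Pcdhgb2, Cftr, Slc28a2, Pdlim1 and Megf10 were also called lower in EtOH (highest edgeR adjusted p = 0.0229). Ugt8a and Scarf1 were not (0.0724 and 0.0505), and with all libraries none of the 8 was. Of 21757 autosomal genes in the table, 5 were on in every FF_4OHT library and at 0 in WT_4OHT A and B, and all 5 were at 1 CPM or more in WT_4OHT C. The opposite pattern was seen for 2 genes, both at 0 in every FF_4OHT library: Adamts1, a matrix protease, at 6.5, 6.003 and 0.0818 CPM in WT_4OHT A to C, and Prdm16, a zinc finger regulator of stem cells, at 10.1, 12.1 and 0 CPM.

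Setting the 4OHT comparison beside the same lines in EtOH shows the difference between the lines without the drug, and those libraries are not shared between the comparisons. Without the 3 libraries WT_4OHT C, FF_EtOH C and WT_EtOH C, 445 of 12014 genes were called between FF_EtOH and WT_EtOH (3.7%), 330 higher and 115 lower. With all libraries the same comparison called 0 by edgeR, with 660 at an unadjusted p under 0.05, 24 by DESeq2 and 0 by limma voom. In both treatments 347 genes were called, which are 17.7% of the 1956 called in 4OHT in that fit and 78.0% of the 445 called in EtOH, and 346 of them had the same sign. Across the 12014 genes, which are not independent of each other, the log2 differences in the 2 treatments had a correlation of 0.677. The mean absolute log2 difference was 0.555 in 4OHT and 0.459 in EtOH.

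The FF to WT difference itself changed between treatments for 64 of 12014 genes (0.533%), by an interaction term in the fit without those 3 libraries, and 62 of them were also called in 4OHT. With all libraries the interaction was called for 279 genes. The interaction was above 0 for 8 and below 0 for 56. Ddx41 and Dhx16 had the smallest adjusted p among the named genes: Ddx41 differed by -2.60 ± 0.24 on the log2 scale (edgeR adjusted p = 0.000546) and Dhx16 by -1.75 ± 0.15 (edgeR adjusted p = 0.000355). In EtOH, Dhx16 was at 128, 111 and 114 CPM in FF libraries A to C and at 119, 112 and 135 CPM in WT libraries A to C. Matk, a kinase that phosphorylates SRC family kinases, was at 20.7, 21.4 and 20.4 CPM in FF_4OHT, against 47.0, 54.4 and 81.1 CPM in WT_4OHT, and was at 77.1, 62.0 and 45.1 CPM in FF_EtOH A to C and 54.6, 46.7 and 48.8 CPM in WT_EtOH A to C. The interaction for Matk was -1.74 ± 0.30 (edgeR adjusted p = 0.0254). Scly, which releases selenium from selenocysteine, was lower in 4OHT, at 42.1, 51.0 and 43.5 CPM in FF_4OHT, against 63.4, 72.5 and 133 CPM in WT_4OHT, while in EtOH it was at 129, 119.8 and 69.5 CPM in FF and at 66.6, 65.0 and 76.1 CPM in WT libraries A to C. The EtOH difference was called higher without the 3 C libraries (log2 0.95, edgeR adjusted p = 0.00539) and was not called with all libraries (0.61, adjusted p = 0.851). The 4OHT call of Scly was lost without FF_4OHT A, FF_4OHT B, FF_4OHT C or WT_4OHT C (highest edgeR adjusted p = 0.094). Ccdc107, a coiled-coil protein, and Ssbp4, a protein of a single-stranded DNA-binding family, differed by -1.75 and -1.49.

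Above 0, Dancr and Snhg1 had interactions of 2.06 ± 0.34 and 1.77 ± 0.27 (edgeR adjusted p = 0.0226 and 0.0213). Rab40c, a ubiquitin ligase adaptor, was at 37.1, 41.6 and 45.6 CPM in FF_4OHT, against 17.0, 21.3 and 21.1 CPM in WT_4OHT, with an interaction of 1.20. Tti2, a cochaperone of PI3K-related kinases, was at 40.4, 40.5 and 41.1 CPM in FF_4OHT, against 19.4, 20.7 and 22.4 CPM in WT_4OHT, with an interaction of 0.98. The FF_4OHT libraries lay within 2 CPM of each other for Tti2. D6Wsu163e, a gene without a given role, and Rabggtb, a subunit of the enzyme that attaches lipids to RAB proteins and a host of snoRNAs, differed by 0.94 and 0.80. By list, the interaction medians were -0.44 for G2/M genes, -0.40 for ATF4 and amino acid genes, 1.20 for snoRNA hosts and 1.28 for snoRNAs, beside EtOH medians of -0.07, -0.01, -0.09 and -0.13. The numbers of members called in the interaction were 1, 3, 2 and 0 by edgeR, and for the snoRNAs 23 were at an unadjusted p under 0.05, while DESeq2 and limma voom called 8 and 3 with all libraries. For interferon genes the medians were 0.43 and 0.35, and 0 were called in the interaction by edgeR, with 2 at an unadjusted p under 0.05, 2 called by DESeq2 and 0 by limma voom with all libraries. For NF-kB and cytokine genes the medians were 0.55 and 0.37, and 0 were called in the interaction by edgeR. Of these, 4 were at an unadjusted p under 0.05, and DESeq2 and limma voom called 2 and 0 with all libraries.

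**Figure D5:**
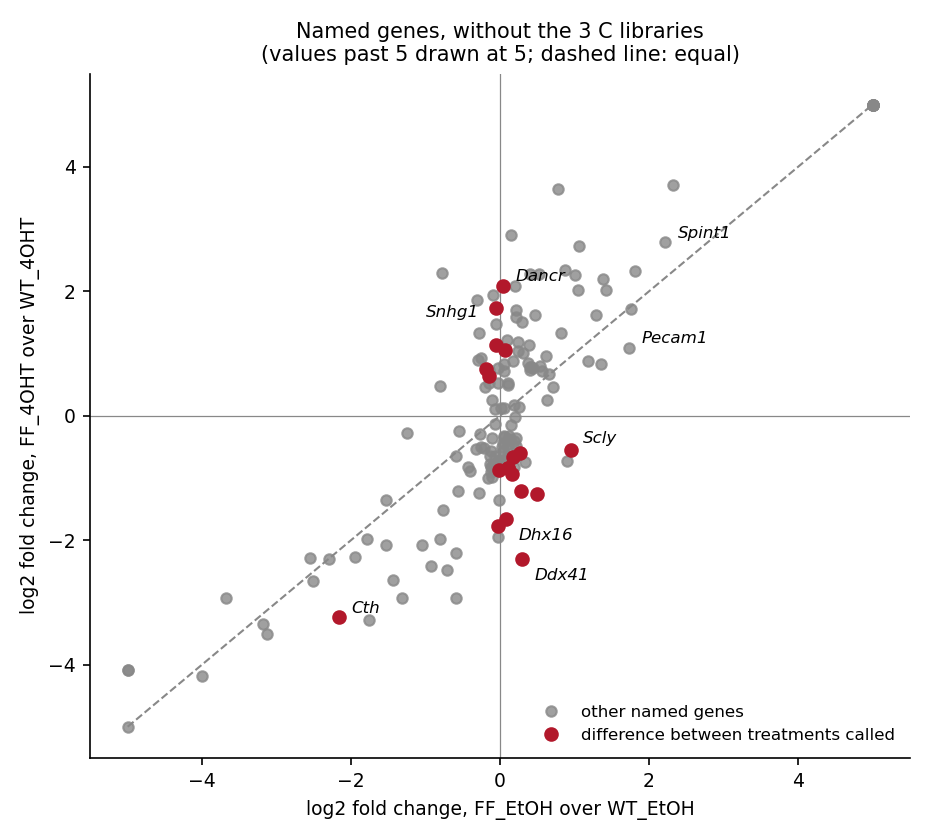
Each of the 164 points is a named gene, with the log2 fold change of FF_4OHT over WT_4OHT on the vertical and of FF_EtOH over WT_EtOH on the horizontal axis, without the 3 C libraries and with values past 5 drawn at 5. The 19 genes whose difference changed between treatments (red) include Ddx41, Dhx16, Dancr and Snhg1 near a horizontal value of 0, while Spint1 and Pecam1 lie nearer to the dashed line of equal differences.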

How the data were processed

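Total RNA was sequenced in 18 libraries, and the authors deposited 1 table of raw counts per gene symbol for all of them. Per the submitters' processing notes, reads were handled with featureCounts 1.5.2 (Subread), HISAT2 2.0.5, FastQC 0.11.7 and CASAVA 1.4 on mm10. Neither a strand setting nor an annotation is given in the sources used here. Of 24062 symbols in the table, 22708 matched 1 gene of GENCODE M21 (GRCm38) and 21757 lay on autosomes. Of the genes tested with all libraries, 388 on X or Y and 601 symbols without a place were tested and adjusted over, and are left out of the description.

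Counts were fitted with edgeR 4.0.16 (R 4.3.3; TMM scaling, robust quasi-likelihood F test, Benjamini-Hochberg adjustment, threshold 0.05) across all 18 libraries, after a filter with a minimum count of 10 (12859 genes), and again without WT_4OHT C (13031 genes). The interaction and the EtOH comparison were fitted without the 3 C libraries named in the text. DESeq2 1.42.0 and limma 3.58.1 (voom) served as alternatives. The line axis is the projection of log2 CPM on the difference between FF_EtOH A and B and WT_EtOH A and B. The script was tested on simulated data. Ratios with few counts have exact 95% intervals, which cover counting error only, and the floor for a group at 0 is 3 counts.

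Named genes were the 10 largest changes in each direction called in both fits, the 8 largest in each direction called without WT_4OHT C alone, the 6 largest interactions in each direction, all at 10 CPM or more without overlap between groups where the fit allowed, and up to 4 members of each of 38 gene lists. The comparison, its members and the lists were chosen with earlier results of these data known. Deviations of same-letter FF_4OHT and WT_4OHT libraries from their group means correlated at 0.327 (A), 0.005 (B) and 0.276 (C). Between different letters the values ran from -0.337 to 0.098. Deviations from the same group mean are not independent of each other, and WT_4OHT C is among them, so these values cannot decide the pairing. The letters were not treated as pairs in the main fits, and counts with the letter as a block are given below. Some genes that this rule names are not reported here.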

Additional observations from a re-analysis of the deposited data

Results flagged for a closer look

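The difference between the FF and WT lines was not the same in 4OHT and in EtOH for 18 named genes, by edgeR's interaction term without WT_4OHT C, FF_EtOH C and WT_EtOH C, at adjusted p values between 0.000355 and 0.0486. On the log2 scale, the difference in 4OHT exceeded that in EtOH by 2.06 for Dancr, 1.77 for Snhg1, 1.20 for Rab40c, 0.98 for Tti2, 0.94 for D6Wsu163e and 0.80 for Rabggtb. It was below that in EtOH for the other 12 genes, with values of -2.60 for Ddx41, -1.75 for Ccdc107, -1.75 for Dhx16, -1.74 for Matk, -1.50 for Scly and -1.49 for Ssbp4. Among members of the gene lists the values were -0.83 for Kif20a, -0.95 for Rfc5, -0.95 for Pold1, -0.86 for Tcof1, -0.85 for Aldh18a1 and -1.09 for Slc1a5. A call in the interaction with all libraries as well was a condition for these 18, and several had been named for their large interactions. Cth differed by -1.08 without the 3 libraries (edgeR adjusted p = 0.036) and was not called with all libraries (0.149), so it is not counted among them.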

How the results depend on the processing

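Ddx41 was called lower in every fit, with log2 values from -2.48 to -2.19. The 513 genes higher became 907 with DESeq2, 931 with the compared groups alone, 1974 with these groups without WT_4OHT C, 962 without the 3 C libraries, 128 at an adjusted p under 0.01, 244 at 2-fold or more, and 158 to 732 on leaving out 1 library. Without WT_4OHT C and WT_4OHT A or B they were 87 and 74. The 1062 lower became 2065 with the compared groups without WT_4OHT C, 461 at 0.01, 213 at 2-fold, and 401 to 989 on leaving out 1 library. Without WT_4OHT C and also FF_4OHT A, B or C they were 655, 543 and 476, and with WT_4OHT A or B left out 298 and 221. The 279 interactions became 610 with DESeq2, 161 with no filter, 431 with the compared groups alone, 64 without the 3 C libraries, 44 at 0.01, 106 at 2-fold, and 76 to 234 on leaving out 1 library. The EtOH comparison, with 0 calls, had 24 with DESeq2, 1 with the compared groups alone, 445 without the 3 C libraries and 0 to 1 on leaving out 1 library. The cause of these shifts was not tested. With the letter as a replicate block, 570 genes were higher and 1060 lower.

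Signs turned for 11 named genes. Padi4 was at -0.014 with all libraries, and at 0.021 with DESeq2, 0.020 with its size factors, 0.052 at 5 CPM in 3 libraries, 0.220 with voom, 0.033 with the replicate block and 0.004 by library size. Without WT_4OHT C it was at 0.812 with the compared groups, 0.869 with the replicate block, 0.826 and 0.828 under those scalings, 0.836 without the 3 C libraries, 0.804, 0.826 and 0.863 with FF_4OHT A, B or C also left out, and 0.689 and 0.996 with WT_4OHT A or B left out. Prg3 was at 0.033 with voom. Without the 3 C libraries, Car2 was at -0.243, Spi1 at -0.021, Hoxa9 at -0.134, Tgm2 at 0.466 and N4bp3 at 0.251. On leaving out 1 library, the values ran from -0.333 to 0.804 for Padi4, -0.316 to 0.164 for Prg3, -0.054 to 5.094 for H2-Ab1, -0.274 to 0.250 for Car2, -0.048 to 1.064 for Pecam1, -0.052 to 0.121 for Spi1, -0.017 to 0.146 for Rpsa, -0.388 to 0.178 for Hist1h1c, -0.164 to 0.243 for Hoxa9, -3.384 to 0.435 for Tgm2 and -1.599 to 0.219 for N4bp3. Genes with few counts, such as many snoRNAs, are limited by depth.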
